A study of Mus musculus with 39 samples.

Results

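The clathrin adaptors and endocytic machinery are described here as 10 genes of a mouse brain macrophage RNA sequencing study: the adaptor chains Ap1b1, Ap2a1, Ap2a2, Ap2b1, Ap2m1 and Ap2s1, the clathrin heavy chain Cltc, the cargo adaptors Dab2 and Picalm, and the fission enzyme Dnm2. They were taken by gene symbol from a table of 53379 genes, of which 22061 passed the filter on low counts, and all 10 passed it. The set was chosen by its CPM values in the 2 populations, since Ap1b1 and several AP2 chains had been seen higher in border-associated macrophages (BAM) than in microglia at every stage. Every BAM against microglia value of these genes at a stage or over the stages is therefore a description and carries no test. The contrast of their changes with stage between populations was tested, and its p-values are not free of that choice.

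The cells were sorted from brains of embryos of time-mated C57Bl/6 mice at 6 stages, E10.5, E11.5, E12.5, E14.5, E16.5 and E18.5, with no other treatment or allele named in the labels. BAM, the macrophages at the borders of the brain, gave 4, 3, 3, 3, 3 and 4 libraries in stage order (n = 20). Microglia, the macrophages of the brain tissue itself, gave 4, 3, 3, 2, 3 and 4 libraries (n = 19). Whether libraries came from separate litters or pools, and which surface proteins set the sort gates, was not stated, so p-values measure only the spread between these samples.

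In clathrin-mediated endocytosis the AP2 complex, made of an alpha, a beta, a mu and a sigma chain, binds the plasma membrane and cargo and recruits clathrin, and dynamin then cuts the coated bud from the membrane. AP1 is the related complex of the trans-Golgi network and endosomes. Dab2 brings receptors of the low density lipoprotein receptor family to the coat, and Picalm binds membrane lipids and carries vesicle fusion proteins into it. Tissue macrophages use this route to take up soluble ligands through scavenger and mannose receptors.

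Library totals were 10.7 to 47.2 M counts, and the lowest count of any of the 10 genes in any library was 520. Libraries fell into 2 name series: series R10 (16 libraries, 20.6 to 47.2 M) held the whole of E10.5 and E11.5 plus a single E18.5 library from BAM and another from microglia, and series R8 (23 libraries, 10.7 to 24.3 M) held the rest. Series and stage thus cannot be told apart between the first 2 stages and the rest, apart from those 2 libraries. All 11 BAM markers were higher and all 10 microglia markers lower in BAM in the fit over stages (edgeR quasi-likelihood, adjusted p under 0.05), and the 6 pan macrophage markers summed to 4385 to 11780 CPM (counts scaled per library to the same total) in BAM and 4268 to 16220 in microglia. At E10.5 the microglia markers summed to 3006 to 3429 CPM in BAM and 3679 to 4937 in microglia, the narrowest gap of any stage. Markers of other cells were lower: endothelial markers summed to 41.2 to 409.5 CPM in BAM and 97.8 to 242.9 in microglia, mesenchymal and mural markers to 6.48 to 709 and 2.56 to 385.3, and neural markers to 58.3 to 830.5 and 97.6 to 992. Erythroid markers summed to 39.02 to 323.4 CPM in BAM and 41.6 to 711 in microglia, monocyte markers to 0.781 to 14.1 and 8.998 to 91.4, and granulocyte and mast cell markers to 6.01 to 144 and 4.20 to 91.1, with Mcpt4 at 0 in every microglia library. Several of these sums were higher at E18.5 than at E10.5, and others were lower. Mesenchymal and mural medians were 399.5 CPM at E18.5 and 9.81 at E10.5 in BAM, and 205.6 and 13.2 in microglia. Neural medians were 355 and 80.4 in BAM and 250.4 and 108 in microglia, with the highest at E14.5 (724 in BAM and 940 in microglia). Endothelial medians were 296.7 and 79.1 in BAM and 190.0 and 110.0 in microglia, and erythroid medians 141 and 46.1 in BAM and 224 and 44.3 in microglia. Monocyte medians were lower at E18.5, at 3.62 and 10.2 in BAM and 11.4 and 65.8 in microglia. Granulocyte and mast cell medians were 99.4 and 6.66 in BAM and 8.27 and 44 in microglia. The part of these sums in the stage results below was not tested.

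The 10 genes lie on 5 chromosomes of GRCm38, with the limits the count table gives. Ap1b1 spans chr11:4986824-5042791, Ap2b1 chr11:83299024-83405035 and Cltc chr11:86694351-86757565. Chromosome 7 carries Ap2s1 at chr7:16738410-16749294, Ap2a1 at chr7:44900373-44929496, Picalm at chr7:90130213-90213465 and Ap2a2 at chr7:141562173-141633011. Dnm2 spans chr9:21424908-21507759, Dab2 chr15:6299788-6440712 and Ap2m1 chr16:20535478-20544909. Ap2a1 and Cltc are on the minus strand.

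Start site windows of RefSeq (GRCm38.p6, 250 bases before to 50 after the start) were found for all 10 genes. They are shown for the 4 genes on which the results below turn most, Dab2 with both of its windows, so that Picalm, which ran opposite to the other 3, can be set beside them. Written 5′ to 3′ on the gene's strand, capitals mark matches on either strand to 4 motifs. GAGGAA is the core bound by the macrophage factor PU.1, and its other strand reads TTCCTC. The E-box searched was CACGTG. For the factor AP-1 the letters TGACTCA were searched. The Sp1 box was GGGCGG, read on the other strand as CCGCCC.
Dab2, upstream start, chr15:6299539-6299838 (+ strand): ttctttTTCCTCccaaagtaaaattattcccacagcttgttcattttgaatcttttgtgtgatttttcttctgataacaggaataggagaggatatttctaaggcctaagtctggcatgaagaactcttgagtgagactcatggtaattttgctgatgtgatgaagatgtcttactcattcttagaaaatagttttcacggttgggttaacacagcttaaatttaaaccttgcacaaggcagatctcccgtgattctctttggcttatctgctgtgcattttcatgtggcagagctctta
Dab2, downstream start, chr15:6386498-6386797 (+ strand): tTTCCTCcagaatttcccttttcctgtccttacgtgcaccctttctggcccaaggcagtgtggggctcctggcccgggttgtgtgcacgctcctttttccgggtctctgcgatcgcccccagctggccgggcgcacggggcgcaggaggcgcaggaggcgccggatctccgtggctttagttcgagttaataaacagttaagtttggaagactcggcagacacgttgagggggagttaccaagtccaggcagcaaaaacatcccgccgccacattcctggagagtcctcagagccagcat
Ap2a2, chr7:141561930-141562229 (+ strand): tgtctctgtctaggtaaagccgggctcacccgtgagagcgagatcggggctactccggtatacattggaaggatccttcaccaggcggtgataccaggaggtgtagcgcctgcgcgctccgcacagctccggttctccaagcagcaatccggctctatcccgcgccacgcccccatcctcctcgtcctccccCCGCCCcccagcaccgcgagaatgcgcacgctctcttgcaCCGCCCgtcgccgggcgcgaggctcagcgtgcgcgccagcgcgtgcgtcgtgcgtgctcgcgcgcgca
Ap1b1, chr11:4986574-4986873 (+ strand): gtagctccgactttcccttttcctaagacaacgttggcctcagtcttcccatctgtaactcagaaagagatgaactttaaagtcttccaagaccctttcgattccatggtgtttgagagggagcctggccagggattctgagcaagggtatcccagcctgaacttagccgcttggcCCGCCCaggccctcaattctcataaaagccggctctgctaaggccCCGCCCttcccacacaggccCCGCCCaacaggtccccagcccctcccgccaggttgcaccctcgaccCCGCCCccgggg
Picalm, chr7:90129963-90130262 (+ strand): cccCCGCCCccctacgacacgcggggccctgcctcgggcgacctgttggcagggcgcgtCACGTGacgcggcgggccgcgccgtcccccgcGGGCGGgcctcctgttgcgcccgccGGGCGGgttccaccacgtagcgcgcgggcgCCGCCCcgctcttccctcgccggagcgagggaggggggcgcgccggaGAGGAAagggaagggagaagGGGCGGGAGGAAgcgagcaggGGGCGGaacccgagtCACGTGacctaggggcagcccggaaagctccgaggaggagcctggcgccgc
Each Dab2 window held 1 GAGGAA match and no GGGCGG match. Ap2a2 held 2 and Ap1b1 held 4 GGGCGG matches and neither held GAGGAA. Picalm held 2 GAGGAA, 2 CACGTG and 6 GGGCGG matches, with the second GAGGAA directly after a GGGCGG. No window of the 10 genes held TGACTCA. Over all 32851 windows of this length, 28.3% held GAGGAA, 7.15% CACGTG, 5.2% TGACTCA and 35.7% GGGCGG. A match describes letters in the window and not a site in use. Bases from the windows were 37.7% and 59.3% G or C at the upstream and downstream Dab2 starts, 68.3% in Ap2a2, 59% in Ap1b1 and 78% in Picalm.

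Dab2 showed the widest difference of the 10 genes. In BAM it stood at 5745, 4639, 4449.8 and 4815 at E10.5, at 6704, 7149 and 7150.0 at E11.5, at 4898, 5635 and 5858 at E12.5, at 6052, 4836 and 4932 at E14.5, at 4650.4, 5204 and 5711 at E16.5, and at 5878, 4674, 3984 and 4631 at E18.5 CPM. In microglia it stood at 1449.9, 1276, 2321 and 2245 at E10.5, at 1844, 2054 and 2765 at E11.5, at 606, 356 and 1182 at E12.5, at 312 and 621 at E14.5, at 232, 246 and 409 at E16.5, and at 341, 256, 263 and 288 at E18.5 CPM. Every BAM library was above every microglia library of its stage. Group means lay between 4792 and 7001 CPM in BAM, and in microglia between 287 CPM at E18.5 and 2221 CPM at E11.5. The fitted log2 difference of BAM over microglia was 1.41 ± 0.25 at E10.5, 1.64 ± 0.29 at E11.5, 2.96 ± 0.31 at E12.5, 3.57 ± 0.37 at E14.5, 4.17 ± 0.32 at E16.5 and 3.96 ± 0.28 at E18.5 (± SE, as for all log2 values below). In a sorted bulk library, fewer cells that express a gene and less of its RNA per cell cannot be told apart, here and for every gene below.

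The BAM markers of the microglia libraries are given beside Dab2. The 11 BAM markers summed to medians of 9883, 20570, 24430, 26470, 34240 and 34520 CPM in BAM over the 6 stages in order, against 3347, 5745, 3238, 2750, 2657 and 2383 CPM in microglia, and none of the 11 was at 0 in all microglia libraries. At 5 of 6 stages the microglia library with the highest BAM marker sum was also the one highest in Dab2, as it was for Ap1b1 and Ap2a2. It was so at 4 stages for Ap2m1, Ap2s1 and Dnm2, at 3 for Ap2b1, at 2 for Cltc and at 1 for Picalm and Ap2a1. With 2 to 4 microglia libraries per stage some matches arise by chance, and the counts were not tested. At E12.5 the library highest in both BAM markers and Dab2 was replicate 3, with 5909 CPM of BAM markers and 9540 of microglia markers. Replicates 2 and 1 had 2005 and 3238 CPM of BAM markers and 13340 and 15490 of microglia markers. Across stages the relation was looser: microglia E10.5 replicate 1 had 2562 CPM of BAM markers and 1449.9 of Dab2, and E12.5 replicate 1 had 3238 and 606. The part of other cells in the Dab2 values was not tested.

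**Figure D1:**
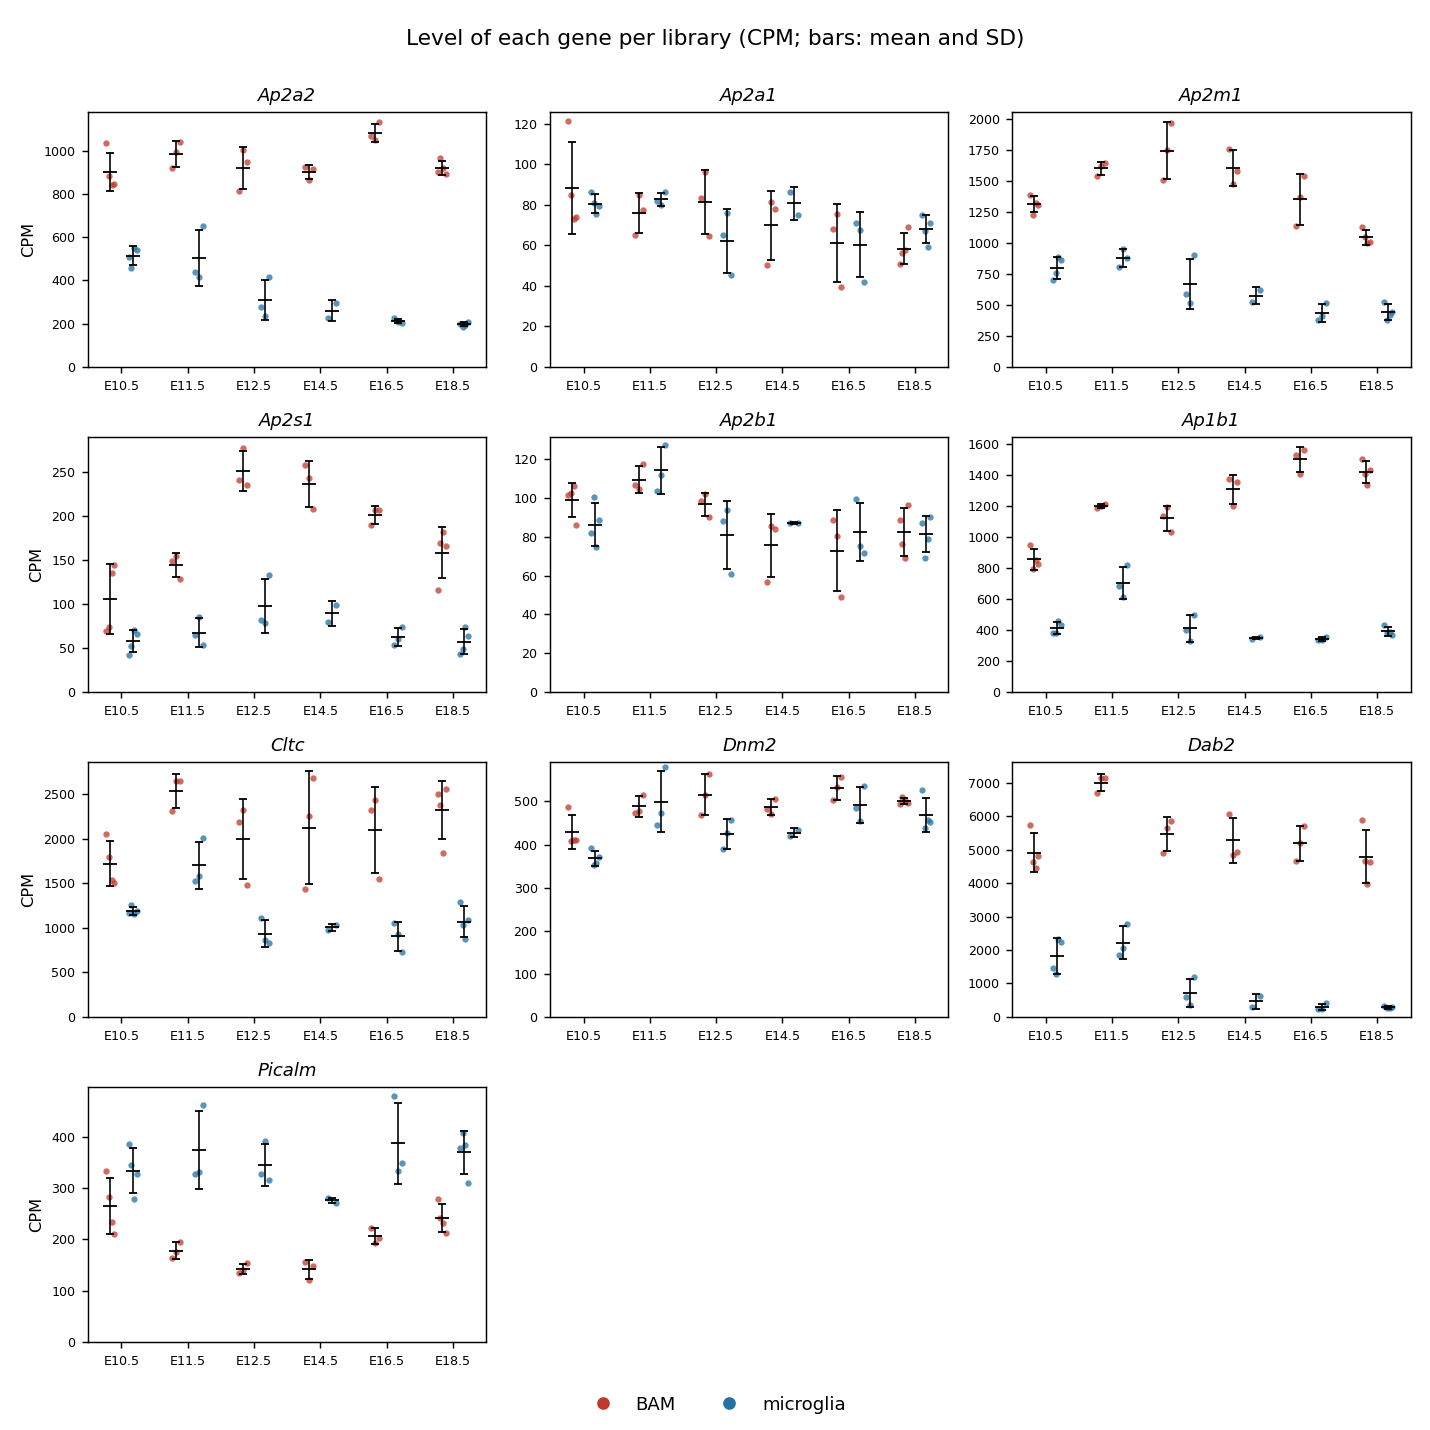
Level of each of the 10 genes in every library, in CPM (y axis, from 0) against embryonic stage (x axis). Points are libraries and bars the mean and SD of a group, with BAM left of microglia. Dab2, Ap2a2, Ap1b1, Ap2m1 and Cltc of BAM lie above microglia at all 6 stages, Picalm of BAM lies below microglia from E11.5 on, and Ap2a1 and Ap2b1 overlap at most stages.

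Picalm, the other cargo adaptor, went the opposite way to Dab2. In BAM it stood at 333, 281, 233 and 211 at E10.5, at 164, 174 and 196 at E11.5, at 134, 139 and 153 at E12.5, at 155, 121 and 148 at E14.5, at 223, 193 and 202 at E16.5, and at 279, 241, 232 and 213 at E18.5 CPM. In microglia it stood at 386, 344, 278 and 327 at E10.5, at 328, 331 and 461 at E11.5, at 327, 391 and 316 at E12.5, at 279.7 and 272 at E14.5, at 478, 333 and 349 at E16.5, and at 379, 407, 383 and 310.2 at E18.5 CPM. The populations overlapped at E10.5 and were apart at the 5 later stages, with BAM lower. The fitted log2 difference was −0.34 ± 0.14 at E10.5, −1.08 ± 0.17 at E11.5, −1.27 ± 0.17 at E12.5, −0.90 ± 0.18 at E14.5, −0.86 ± 0.17 at E16.5 and −0.72 ± 0.15 at E18.5. Set side by side per length, as TPM (counts divided by gene length and scaled per library to the same total), Dab2 exceeded Picalm in BAM by 40.5 ± 6.06 times at E10.5, 84.6 ± 5.41 at E11.5, 82.3 ± 4.003 at E12.5, 80.3 ± 7.57 at E14.5, 54.3 ± 8.45 at E16.5 and 42.5 ± 4.34 at E18.5. The same ratio in microglia was 12.1 ± 4.96 at E10.5, 12.7 ± 0.634 at E11.5, 4.64 ± 3.08 at E12.5, 3.65 ± 1.78 at E14.5, 1.71 ± 0.746 at E16.5 and 1.68 ± 0.323 at E18.5 (SD, n as given for each group). In BAM the ratio was thus highest at the middle stages, and in microglia at the first 2. It rests on exon lengths of 15732 bases for Picalm and 7342 for Dab2, and a gene whose long exons these cells skip is understated. In CPM, with no division by length, mean Picalm exceeded mean Dab2 in microglia at E16.5 (387 against 295) and E18.5 (370 against 287).

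Of the AP2 chains, the alpha chain Ap2a2 differed most from E12.5 on and in the mean over stages (1.62 ± 0.06), while at E10.5 and E11.5 the log2 difference of Ap2s1 (0.84 ± 0.22 and 1.07 ± 0.25) was the larger, against 0.80 ± 0.13 and 0.96 ± 0.15 for Ap2a2. In BAM it stood at 1034, 882, 843 and 848 at E10.5, at 923, 994 and 1041 at E11.5, at 815, 1003 and 946 at E12.5, at 923, 864 and 918 at E14.5, at 1068, 1049 and 1131 at E16.5, and at 903, 965, 920.0 and 892 at E18.5 CPM. In microglia it stood at 508, 456, 552 and 543 at E10.5, at 441, 418 and 651 at E11.5, at 275, 237 and 417 at E12.5, at 228 and 295 at E14.5, at 225, 207 and 205 at E16.5, and at 200.4, 185, 195 and 209 at E18.5 CPM. The groups did not overlap at any stage, and the log2 difference was 0.80 ± 0.13 at E10.5, 1.60 ± 0.16 at E12.5 and 2.12 ± 0.14 at E18.5. The paralog that can take the same place in the complex, Ap2a1, overlapped between populations at all 6 stages, at 39.6 to 122 CPM in BAM and 42.0 to 86.4 CPM in microglia, with a mean log2 difference over stages of 0.00 ± 0.09.

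The mu chain Ap2m1, which reads tyrosine-based sorting signals, stood in BAM at 1388, 1228, 1325 and 1308 at E10.5, at 1539, 1622 and 1644 at E11.5, at 1509, 1751 and 1970.1 at E12.5, at 1759.8, 1474 and 1582 at E14.5, at 1140.0, 1370.2 and 1544 at E16.5, and at 1133, 1046, 997 and 1010.5 at E18.5 CPM. In microglia it stood at 698, 756, 887 and 860.0 at E10.5, at 805, 948 and 881 at E11.5, at 587, 518 and 903 at E12.5, at 526 and 623 at E14.5, at 377, 409.9 and 513 at E16.5, and at 527, 382, 416 and 446 at E18.5 CPM. BAM were above microglia at all 6 stages, by a log2 difference of 0.70 ± 0.14 at E10.5, 1.69 ± 0.17 at E16.5 and 1.14 ± 0.15 at E18.5. The sigma chain Ap2s1, the smallest subunit, ran from 68.8 to 278 CPM in BAM and from 42.3 to 133 CPM in microglia, apart at 5 stages and overlapping at E10.5. At E10.5 Ap2s1 had 68.8, 73.2, 135 and 144 CPM in BAM against 42.3, 52.6, 70.4 and 65.9 in microglia. The beta chain Ap2b1, which holds the clathrin-binding hinge of AP2, ran from 49.2 to 117 CPM in BAM and from 61.0 to 128 CPM in microglia, and overlapped at 5 stages. At E14.5 its 3 BAM libraries (56.8, 85.7 and 84.2 CPM) were below both microglia libraries (87.0 and 87.4 CPM), a separation that TMM scaling of the libraries removed.

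Ap1b1, the beta chain of AP1, stood in BAM at 950.2, 795, 851 and 825 at E10.5, at 1187, 1197 and 1215 at E11.5, at 1133, 1192 and 1033 at E12.5, at 1372, 1201 and 1352 at E14.5, at 1531, 1409 and 1560.1 at E16.5, and at 1499.6, 1407, 1334 and 1433 at E18.5 CPM. In microglia it stood at 381, 379.7, 455 and 432 at E10.5, at 681, 615 and 818 at E11.5, at 402, 328 and 499 at E12.5, at 343 and 355 at E14.5, at 335, 332 and 356 at E16.5, and at 432, 378, 385 and 368 at E18.5 CPM. BAM were above microglia at all 6 stages, and the log2 difference was 1.04 ± 0.11 at E10.5, 0.75 ± 0.12 at E11.5, 1.47 ± 0.12 at E12.5, 1.97 ± 0.15 at E14.5, 2.18 ± 0.13 at E16.5 and 1.76 ± 0.11 at E18.5. Ordered by mean level, the 6 BAM groups came first, from 1499.8 ± 80.3 CPM at E16.5 to 855 ± 67.3 CPM at E10.5, and the libraries of BAM at E10.5 overlapped those of microglia at E11.5 (705 ± 104 CPM, SD), the next in order. Microglia at E11.5 did not overlap any other microglia group.

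The clathrin heavy chain Cltc ran from 1429.5 to 2676 CPM in BAM and from 729 to 2002 CPM in microglia, and the populations were apart at each stage, by a log2 difference of 0.52 ± 0.16 at E10.5 up to 1.26 ± 0.19 at E16.5. Dynamin 2, Dnm2, varied least: its group means lay within a 1.44-fold range, and BAM exceeded microglia without overlap at 3 of 6 stages, or at 2 with TMM-scaled levels. Its mean log2 difference over stages was 0.14 ± 0.05. In total 5 of 10 genes (Ap1b1, Ap2a2, Ap2m1, Cltc and Dab2) had every BAM library above every microglia library at all 6 stages, which 1.35% of the tested genes did, and none had every BAM library below, which 1.25% did. As these genes were chosen for that difference, nothing is read from the comparison with those shares.

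**Figure D2:**
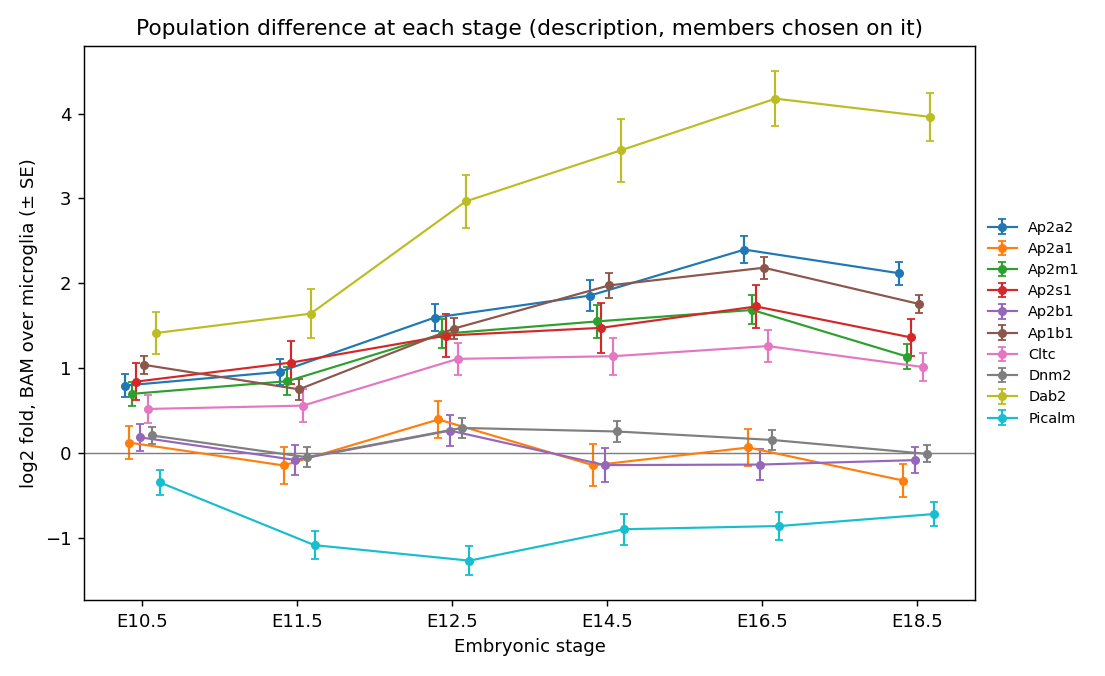
Fitted log2 fold of BAM over microglia (y axis, ± SE) at each embryonic stage (x axis), 1 line per gene. Dab2 has 4.17 at E16.5 and 1.41 at E10.5, Picalm lies below 0 at each stage, and Ap2a1, Ap2b1 and Dnm2 stay near 0.

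Per length, the chains of 1 complex were far from equal. Group means of BAM were 531 to 641 TPM for Ap2a2, 45.8 to 72.0 for Ap2a1, 27.9 to 43.3 for Ap2b1, 848 to 1384 for Ap2m1 and 245 to 566 for Ap2s1. Group means of microglia were 116 to 316 TPM for Ap2a2, 46.6 to 67.9 for Ap2a1, 29.8 to 46.2 for Ap2b1, 345.0 to 741 for Ap2m1 and 129 to 211 for Ap2s1. The beta chain of AP2 was thus listed lowest of the AP2 chains in every group, while Ap1b1, its closest relative, had 599.7 to 1014 TPM in BAM and 229 to 504 in microglia. Lengths are those of all exons of a gene in the table, 8755 bases for Ap2b1 and 4957 for Ap1b1, so a gene with long untranslated exons that these cells skip is understated.

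The 2 alpha chains had different shares in the populations. Ap2a2 held 92.3% ± 1.07 of the alpha chain TPM in BAM at E18.5 and 88.7% ± 1.47 in BAM at E10.5 (SD, n = 4 each). In microglia it held 68.9% ± 1.96 at E18.5 and 82.8% ± 1.74 at E10.5 (SD, n = 4 each), and the libraries of these stages did not overlap. At E12.5 the microglia libraries spread from 70.3% to 87.5%. Ap1b1 held 96.8% ± 0.364 of the summed Ap1b1 and Ap2b1 TPM in BAM at E18.5 and 93.8% ± 0.627 in BAM at E10.5, against 89.4% ± 1.17 in microglia at E18.5 and 89.3% ± 1.85 in microglia at E10.5.

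**Figure D3:**
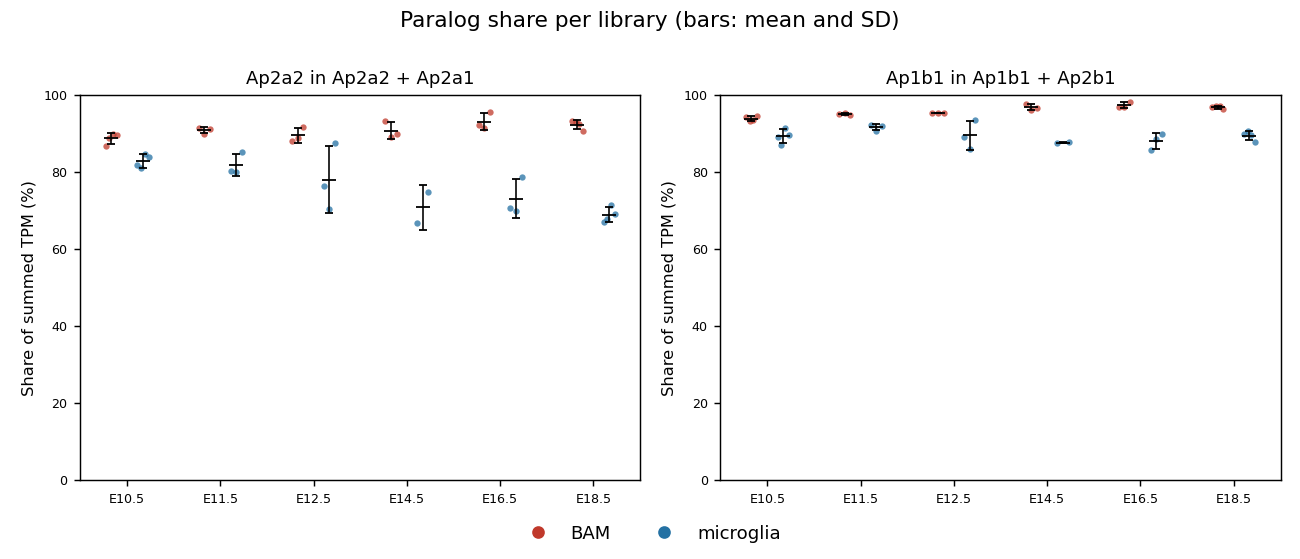
Share of Ap2a2 in the summed alpha chain TPM and of Ap1b1 in the summed Ap1b1 and Ap2b1 TPM (y axis, %, 0 to 100) against embryonic stage (x axis). Points are libraries and bars the mean and SD, BAM left of microglia. The Ap2a2 share of BAM stays between 86.6% and 95.6%, while that of microglia has a mean of 68.9% at E18.5 and 82.8% at E10.5.

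Paralogs of these 2 kinds can share reads, and the longest stretch they share is shown because it bounds that exchange. The coding sequences of Ap1b1 and Ap2b1 were 75.8% identical and those of Ap2a1 and Ap2a2 77.4%. The longest identical runs were 25 and 68 bases, shorter than the reads of 151 bases.
Ap1b1 and Ap2b1, shared run: tgatgaactatgccaagagtcagcc
Ap2a1 and Ap2a2, shared run: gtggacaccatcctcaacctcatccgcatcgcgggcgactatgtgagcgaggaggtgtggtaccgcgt
Genes on the other strand overlap exons of some of the 10 genes, and the library kit does not mark strand. Fuz overlaps 16.7% of the Ap2a1 exon bases, Gm16982 4.26% of Ap2a2, Tmed1 3.88% of Dnm2 and Gm18888 2.87% of Dab2. Reads there cannot be told apart, which bears most on Ap2a1.

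The change of the genes with stage was tested (edgeR quasi-likelihood, Benjamini-Hochberg over all 22061 genes, called at an adjusted p under 0.05). The rule that chose the genes named the population difference at every stage and not this change. As earlier results of these data were known when the genes were chosen, the p-values may not be free of that choice. From E10.5 to E18.5 in microglia, Dab2 fell by 2.61 ± 0.26 on the log2 scale (6.09-fold, adjusted p = 7.71e-10), Ap2a2 by 1.32 ± 0.13 (adjusted p = 9.31e-10) and Ap2m1 by 0.79 ± 0.15 (adjusted p = 4.62e-05). Dnm2 rose by 0.41 ± 0.10 (adjusted p = 0.00126). The E18.5 and E10.5 libraries of Dab2, Ap2a2, Ap2m1 and Dnm2 did not overlap in microglia. So 1 of 10 genes was called higher and 3 lower, where 20.9% of all tested genes were called higher and 14.4% lower, and the median of the 10 was −0.06 against 0.29 over all tested genes. Many of those genes are low. Among the 7892 genes averaging 4 or more on the log2 CPM scale, which include all 10, 25.3% were called higher and 33% lower and the median was −0.10, so 3 of 10 lower is near that share. Ap1b1 did not pass, at −0.02 with a 95% interval of −0.23 to 0.20, and Cltc, Ap2s1, Ap2b1, Ap2a1 and Picalm did not pass either. With the 1 E18.5 library of series R10 alone against the E10.5 libraries of the same series, Dab2 was −2.37 (adjusted p = 0.00102), Ap2a2 −1.31 (adjusted p = 0.000418), Dnm2 0.57 (adjusted p = 0.0130) and Ap2m1 −0.55, which no longer passed (adjusted p = 0.148).

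In BAM from E10.5 to E18.5, Ap1b1 rose by 0.70 ± 0.11 (1.63-fold, adjusted p = 1.95e-06) and its E18.5 libraries were all above its E10.5 libraries. Ap2s1 rose by 0.56 ± 0.22 (adjusted p = 0.0392), and Ap2a1 fell by 0.63 ± 0.19 (adjusted p = 0.00889). Dab2 did not pass, at −0.06 with a 95% interval of −0.57 to 0.44, nor did Ap2a2, at 0.00 with an interval of −0.27 to 0.27. Thus 2 of 10 were called higher and 1 lower, where 22.8% of all tested genes were called higher and 14.8% lower, and the medians were −0.03 for the 10 and 0.29 for all. Among the well-expressed genes 23.4% were higher and 33.6% lower, with a median of −0.12. Within series R10 Ap1b1 was 0.74 (adjusted p = 0.00211), Ap2a1 −0.87 (adjusted p = 0.0780) and Ap2s1 0.07 (adjusted p = 1). Without BAM E10.5 replicate 1 the Ap2a1 change no longer passed (−0.42, adjusted p = 0.0837), and Ap2s1 no longer passed without that library, BAM E10.5 replicate 2 or any of BAM E18.5 replicates 2, 3 and 4 (0.41, 0.42, 0.51, 0.50 and 0.55, adjusted p = 0.153, 0.148, 0.0888, 0.0963 and 0.0692), while without BAM E10.5 replicate 1 Cltc at 0.51 and Dnm2 at 0.28 passed, Cltc at 0.51 also without BAM E18.5 replicate 3 and Ap2m1 at −0.43 without BAM E18.5 replicate 1. With the compared groups fitted alone Ap2s1 was lost (0.54, adjusted p = 0.114) and Ap2m1 passed at −0.38, as it did at −0.39 with no expression filter, and Cltc and Dnm2 passed with RLE factors and with DESeq2 (0.46 and 0.25 in both).

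The first day, E10.5 to E11.5, lies within series R10 in both populations. In microglia Ap1b1 rose by 0.80 ± 0.11 (adjusted p = 6.00e-06) and Dnm2 by 0.46 ± 0.11 (adjusted p = 0.00360), and none fell, where 5.24% of tested genes were called higher and 3.02% lower. Over this day the BAM marker median of the microglia libraries went from 3347 to 5745 CPM and the microglia marker median from 3855 to 9747. The part of other cells in these rises was not tested. In BAM Ap1b1 rose by 0.51 ± 0.11 (adjusted p = 0.00546) and Picalm fell by 0.55 ± 0.16 (adjusted p = 0.0356), where 2.98% of tested genes were called higher and 1.44% lower. For BAM the shares among the well-expressed genes were 5.08% higher and 3.27% lower, and for microglia 10.9% higher and 7.02% lower. Cltc was just outside the threshold in both, at 0.58 ± 0.18 in BAM (adjusted p = 0.0517) and 0.54 ± 0.18 in microglia (adjusted p = 0.0505), and passed with DESeq2, with no expression filter and with the 2 compared groups fitted alone. That last fit also lost Picalm (−0.53, adjusted p = 0.135) and called Dab2 (0.56, adjusted p = 0.0118) in BAM. The Picalm call was lost without BAM E10.5 replicate 1 (−0.41, adjusted p = 0.146) or 2 (−0.52, adjusted p = 0.0829), or without BAM E11.5 replicate 1 (−0.50, adjusted p = 0.150), 2 (−0.55, adjusted p = 0.105) or 3 (−0.62, adjusted p = 0.0569), and without BAM E10.5 replicate 1 Cltc passed at 0.69 (adjusted p = 0.0268).

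Between E12.5 and E18.5 series R8 holds libraries of both stages. In microglia Dab2 fell by 1.14 ± 0.27 (adjusted p = 0.00518) and Ap2a2 by 0.48 ± 0.14 (adjusted p = 0.0330), and no gene of the 10 rose, where 4.01% of tested genes were called higher and 2.74% lower (9.9% and 5.5% of the well-expressed genes). Within R8 they fell by 1.33 (adjusted p = 0.00380) and 0.58 (adjusted p = 0.0181), and Ap2m1 fell by 0.61 (adjusted p = 0.0209). Both rest on microglia E12.5 replicate 3, the library with the high BAM marker sum given above: without it Dab2 was −0.64 (adjusted p = 0.202) and Ap2a2 −0.28 (adjusted p = 0.317), and no gene of the 10 was called. Ap2a2 also lost its call without microglia E18.5 replicate 1 (−0.51, adjusted p = 0.0521), 3 (−0.49, adjusted p = 0.0553) or 4 (−0.49, adjusted p = 0.0578), and Ap2m1 passed without microglia E18.5 replicate 1 (−0.54, adjusted p = 0.0441) or E12.5 replicate 2 (−0.56, adjusted p = 0.0457). Fitting the compared groups alone also lost Ap2a2 (−0.50, adjusted p = 0.0971), and DESeq2 added Ap2m1 (−0.45) and Dnm2 (0.29).

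In BAM over the same span, Picalm rose by 0.81 ± 0.16 (1.76-fold, adjusted p = 0.000485), all 4 E18.5 libraries lying above all 3 E12.5 libraries. Ap2m1 fell by 0.69 ± 0.15 (adjusted p = 0.00214), again without overlap, and Ap1b1 rose by 0.39 ± 0.11 (adjusted p = 0.0204). That is 2 of 10 higher and 1 lower, where 5.24% of tested genes were called higher and 5.32% lower (11.3% and 12.8% of the well-expressed genes). Within R8 Picalm was 0.68 (adjusted p = 0.00433), Ap2m1 −0.79 (adjusted p = 0.00107) and Ap1b1 0.31, which no longer passed (adjusted p = 0.0943). Ap1b1 also lost its call without BAM E18.5 replicate 1 (0.32, adjusted p = 0.1002), BAM E12.5 replicate 1 (0.31, adjusted p = 0.139) or BAM E12.5 replicate 3 (0.31, adjusted p = 0.175), with no expression filter (0.36, adjusted p = 0.1001) and with the compared groups alone (0.35, adjusted p = 0.0524). Both of these fits called Ap2s1 lower, at −0.65 (adjusted p = 0.0331) with no filter and −0.66 (adjusted p = 0.0196) alone.

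**Figure D4:**
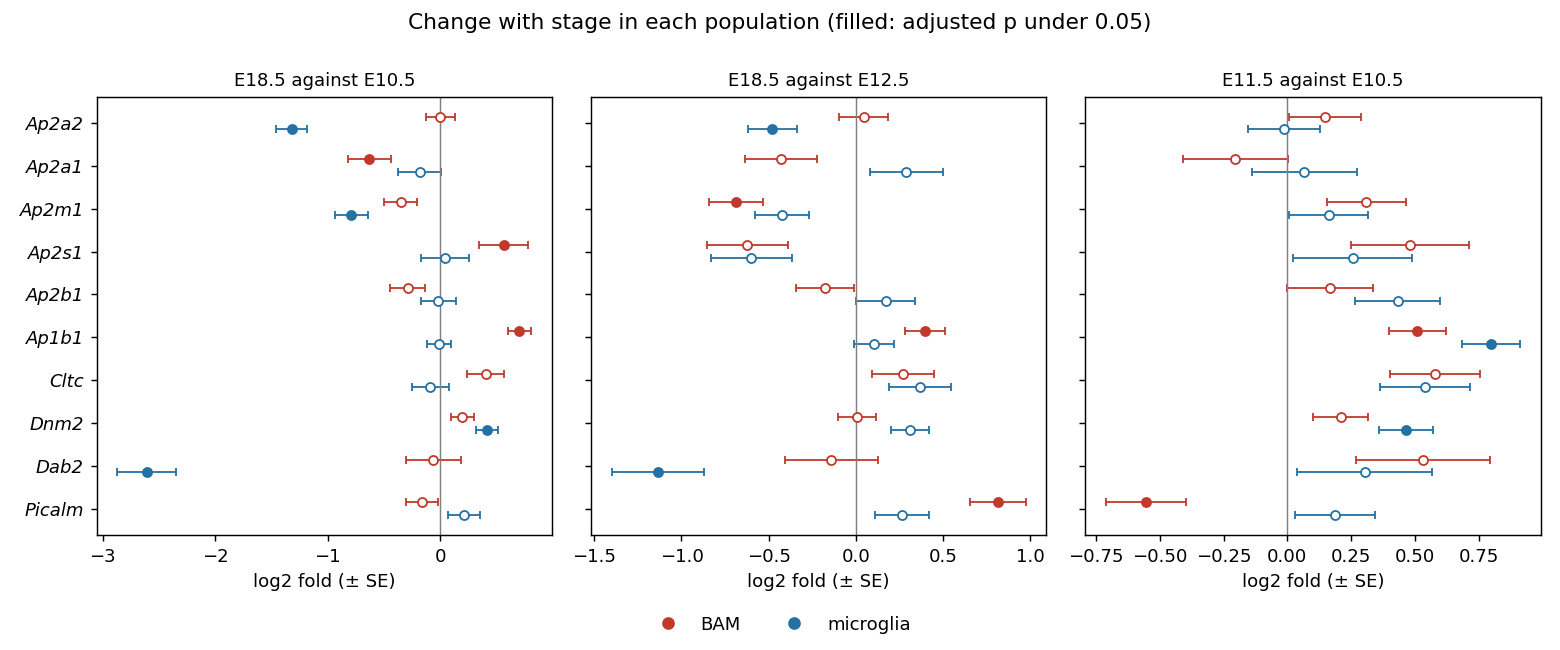
Fitted log2 fold with stage (x axis, ± SE) of each gene (y axis) in BAM and microglia, for E18.5 against E10.5, E18.5 against E12.5 and E11.5 against E10.5. Filled points passed an adjusted p of 0.05. Dab2 of microglia fell by 2.61 over the whole window, while Dab2 of BAM was −0.06.

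Whether the change from E10.5 to E18.5 differed between populations was tested as 1 contrast, the BAM change minus the microglia change. Such a contrast is built from population differences at 2 stages, and the choice of genes used the differences at every stage. Its p-values and counts are therefore not free of that choice, here and from E12.5 on. The contrast was 2.55 ± 0.35 for Dab2 (adjusted p = 4.03e-06), 1.32 ± 0.19 for Ap2a2 (adjusted p = 5.12e-06) and 0.72 ± 0.15 for Ap1b1 (adjusted p = 0.00136). These are 3 of 10 called higher and none lower, where 3.08% of tested genes were called higher and 3.55% lower, and the median of the 10 was 0.47 against 0.01 over all. Among the well-expressed genes 5.75% were higher and 8.34% lower, with a median of −0.05. For Dab2 and Ap2a2 the microglial level fell while the BAM change was −0.06 and 0.00, and for Ap1b1 the BAM level rose while the microglial change was −0.02. Within series R10 Dab2 was 2.56 (adjusted p = 0.0178), Ap2a2 1.24 (adjusted p = 0.0407) and Ap1b1 0.62, which did not pass (adjusted p = 0.312). From E12.5 to E18.5 none of the 10 was called by edgeR, where 0.961% of tested genes were called higher and 1.23% lower. At an unadjusted p under 0.05 there were 4 (Dab2 1.00 ± 0.38, Ap2a2 0.52 ± 0.20, Ap2a1 −0.72 ± 0.29 and Picalm 0.55 ± 0.22), DESeq2 called 1 (Ap2a2, 0.59, adjusted p = 0.0463), and without microglia E12.5 replicate 2 edgeR called Dab2 at 1.31 (adjusted p = 0.0486).

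Other genes of the route were counted in 8 lists of 147 genes, of which 146 were tested, all but Ap1s3. The lists were chosen with earlier results of these data known, so their counts and p-values may not be free of that choice. Over the mean of the 6 stages 62 were higher and 23 lower in BAM, where 28.2% of all tested genes were called, 3030 higher (13.7%) and 3199 lower. Well-expressed genes are called more often: among the 7892, 26.6% were called higher and 23.7% lower, and of the 109 list genes among them 59 were higher and 21 lower. The early endosome and recycling list had 22 of 31 higher in BAM, none lower and a median log2 difference of 0.39 against −0.02 over all tested genes. Its leading genes were the sorting nexins Snx2 (1.76 ± 0.07) and Snx6 (1.66 ± 0.08), which work with the retromer in returning receptors from endosomes, and the recycling ATPases Ehd1 (2.04 ± 0.09) and Ehd4 (1.13 ± 0.05) (edgeR adjusted p between 1.21e-20 and 2.77e-18).

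The counts of each list stand beside the 26.6% higher and 23.7% lower of all well-expressed genes. They take in list genes of any level, of which 109 of 146 are well expressed, so the comparison is not like for like. Of the 24 cargo and accessory adaptors 8 were higher and 2 lower in BAM (median 0.16), the higher count being near that share with low genes counted. The scaffold Itsn1 differed by 2.63 ± 0.12, the AP2 partner Eps15 by 1.31 ± 0.07, its relative Reps2 by 1.87 ± 0.11 and Hip1, which links coats to actin, by 1.71 ± 0.10. Of 10 clathrin light chains and coat monomers 7 were higher and 1 lower (median 0.33), among them the light chain Clta (0.75 ± 0.10), Stam2 (0.48 ± 0.06) and Gga1 (0.42 ± 0.05), with Clint1 lower (−0.45 ± 0.07). The other AP1 chains had 4 of 6 higher and none lower (median 0.28): Ap1m1 by 0.26 ± 0.05, Ap1g2 by 0.30 ± 0.06, Ap1s1 by 0.38 ± 0.08 and Ap1s2 by 0.31 ± 0.07. Of 15 AP3, AP4 and AP5 chains 5 were higher and 1 lower (median 0.11), the higher count again near the well-expressed share with low genes counted. They were led by Ap3s1 (0.45 ± 0.10), Ap3d1 (0.23 ± 0.06), Ap4m1 (0.22 ± 0.08) and Ap5z1 (0.18 ± 0.06).

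Of 27 fission and uncoating genes 5 were higher and 8 lower (median 0.03). With low genes counted, both were near the shares of all well-expressed genes given above. The endophilin Sh3gl1 (1.15 ± 0.06) and the sorting nexin Snx9 (1.09 ± 0.13) were higher, and the kinase Bmp2k (−0.59 ± 0.06) and the low Pacsin1 (−3.00 ± 0.34) were lower in BAM. Of 7 caveolar and flotillin genes 3 were higher and none lower (median 0.48), namely Cav2 (1.93 ± 0.13), Flot2 (1.08 ± 0.08) and Cavin1 (0.81 ± 0.17). Cavin1 was low, with medians of 13.4 CPM in BAM and 8.99 in microglia. Of 26 cargo receptors 8 were higher and 11 lower (median −0.36). The scavenger collectin Colec12 (3.60 ± 0.11), the mannose receptor Mrc1 (3.07 ± 0.14) and the clearance receptor Stab1 (1.86 ± 0.08) were higher, of which Mrc1 and Stab1 are also on the BAM marker list, and Cd9, a tetraspanin that organises membrane proteins, was lower (−3.21 ± 0.13).

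**Figure D5:**
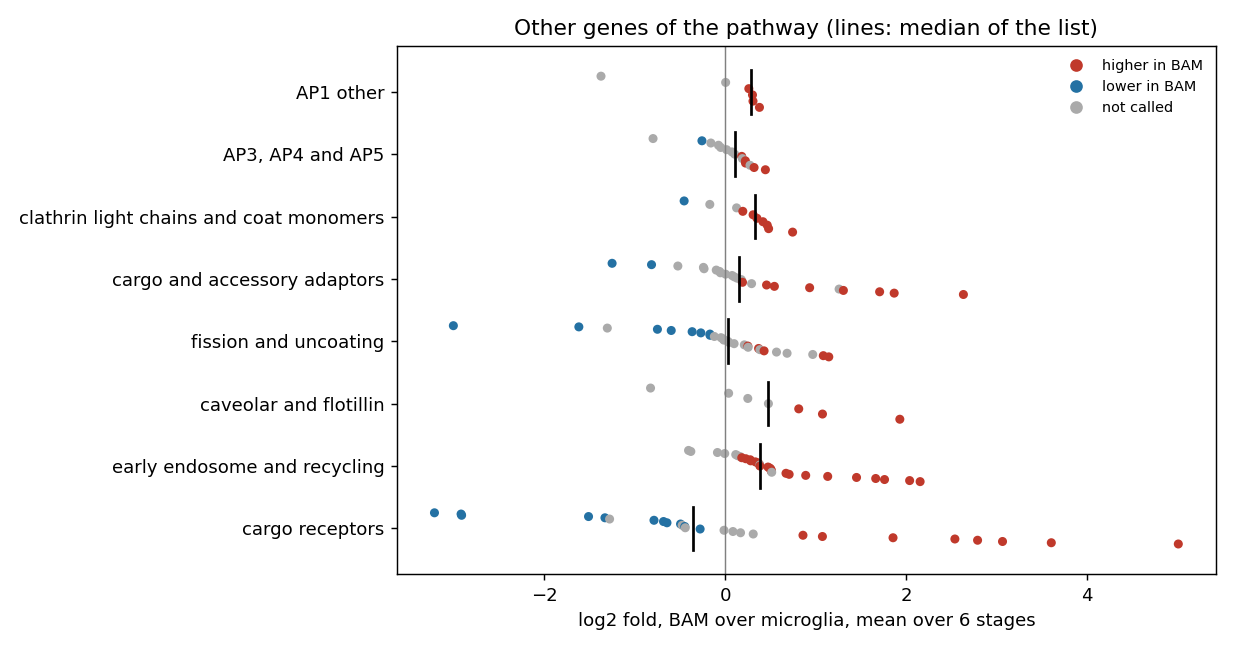
Mean log2 fold of BAM over microglia over 6 stages (x axis) of the other tested genes of the route, 1 row per list (y axis), with a line at each list's median. Early endosome and recycling genes lie mostly above 0 (median 0.39), cargo receptors on both sides (median −0.36).

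From E10.5 to E18.5, 48 of the 146 list genes rose and 21 fell in BAM, and 40 rose and 33 fell in microglia. The 109 well-expressed ones gave 28 higher and 20 lower in BAM and 25 higher and 32 lower in microglia, the microglial counts being near the 25.3% and 33% of all well-expressed genes. In microglia 5 of the 31 early endosome genes rose and 11 fell, the fall being near the 33% of well-expressed genes. The 31 were counted at any level of expression. Among them Snx2, the gene most like Ap2a2 in pattern, was at −1.74 ± 0.15 (edgeR adjusted p = 2.97e-11) and Rab11fip5 at 3.41 ± 0.24 (adjusted p = 2.77e-13). The contrast of the changes called 21 list genes higher and 9 lower, all among the 109, where the well-expressed shares were 5.75% and 8.34%. They were led in the adaptors by Itsn1 (2.81 ± 0.33, adjusted p = 2.44e-07) and Hip1 (2.45 ± 0.29, adjusted p = 2.60e-07) and in the early endosome list by Ehd1 (2.11 ± 0.25, adjusted p = 2.80e-07) and Appl2 (1.63 ± 0.20, adjusted p = 3.29e-07). From E12.5 to E18.5, where no gene of the 10 passed, Appl2 (1.84 ± 0.21, adjusted p = 1.03e-06), Ehd1 (1.67 ± 0.27, adjusted p = 0.000243) and Itsn1 (1.61 ± 0.36, adjusted p = 0.00832) did. Whether these calls rest on microglia E12.5 replicate 3, the library with the high BAM marker sum, was not tested. Between E12.5 and E18.5 14 of the 146 rose and 9 fell in BAM, where 5.24% and 5.32% of all tested genes did. In microglia 10 rose and 11 fell, where 4.01% and 2.74% did. Of the 109 well-expressed ones 12 rose and 9 fell in BAM, where 11.3% and 12.8% of all well-expressed genes did. In microglia 10 of the 109 rose and 10 fell, where 9.9% and 5.5% did. The rises are thus near the well-expressed shares in both populations. From E10.5 to E11.5 17 of the 146 rose and 3 fell in BAM, where 2.98% and 1.44% of all tested genes did. In microglia 17 rose and 2 fell, where 5.24% and 3.02% did. Of the 109, 17 rose and 3 fell in BAM, beside 5.08% and 3.27% of all well-expressed genes. In microglia 16 of the 109 rose and 2 fell, beside 10.9% and 7.02%.

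Likeness of pattern was measured as Pearson's r of mean log2 CPM over the 12 groups, across 7692 genes, as a description, since the points share libraries, scaling and the population difference. Dab2 and Ap2a2 ran together (r = 0.993), and Ap2s1 and Picalm ran most opposite of the 45 pairs (r = −0.929). Ap2a1 and Ap2b1 were nearer to each other (r = 0.773) than to the other AP2 chains. The genes most like Dab2 included Ednrb (0.993), Snx2 (0.990), Pstpip2 (0.988) and Vps26c (0.986), and those most like Ap1b1 were Mrc1 (0.990), Enox2 (0.987), Pepd (0.986), Wwp1 (0.984) and Anxa5 (0.983). The nearest gene was Snx2 for Ap2a2 (0.989), Mpp1 for Ap2m1 (0.989), Stx12 for Cltc (0.985), Ubl4a for Ap2s1 (0.978), Hk2 for Picalm (0.977), Pofut2 for Ap2b1 (0.939), Ubap2 for Ap2a1 (0.926) and Map3k8 for Dnm2 (0.921).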

How the data were processed

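RNA of sorted macrophages was amplified with a modified SMART-seq2 protocol and read as pairs of 151 bases, per the labels' protocols. STAR aligned the reads to GRCm38 and featureCounts assigned them to genes, per the submitters' processing notes (versions and annotation release not given in the sources used here), and the authors deposited raw counts per gene. An excess of even counts (49977 table entries of 2 against 21280 of 1) goes with both mates being counted. From these, edgeR 4.0.16 (R 4.3.3, limma 3.58.1) fitted 12 group means over 39 libraries after filterByExpr and TMM scaling, by quasi-likelihood with 27 residual degrees of freedom, a common biological coefficient of variation of 55.08% and Benjamini-Hochberg adjustment. The fit was tested on simulated counts. TPM used the table's exon lengths. Alternatives were RLE factors, no filter, DESeq2 1.42.0, the compared groups alone, 1 library series, a block of adjacent library numbers and each library left out. With 1 E18.5 library of series R10 per population, its spread was taken from the rest of the fit. Members and lists were chosen with earlier results of these data known. Other genes were named by rule: up to 4 of each list by the smallest p over stages, up to 2 per stage comparison, and for likeness the top 5 for Dab2 and Ap1b1 and the top 1 otherwise. Some items that these rules take in are not reported here. Sequences came from RefSeq (GRCm38.p6) and GENCODE transcripts.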

Additional observations from a re-analysis of the deposited data

Results flagged for a closer look

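In BAM at E10.5, replicate 1 had 487.9 CPM of Dnm2, apart from the other 3 libraries of its group at 407.07 to 410.94 CPM. It was the only such gap among the 40 groups of 4 libraries checked for the 10 genes, where chance flags about 1 in 20, and that library was the highest of its group in 8 of the 10 genes, all but Ap2b1 and Ap2s1.

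The change from E10.5 to E18.5 in BAM minus that in microglia passed the test for 3 genes, with the limit from the choice of genes given above. It was 2.54518 on the log2 scale for Dab2, 1.32248 for Ap2a2 and 0.717585 for Ap1b1. Of these, Dab2 and Ap2a2 also passed within library series R10.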

How the results depend on the processing

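Of 19 called stage results of the 10 genes, 11 kept their call in every setting tried and none reversed. The members called in BAM at E18.5 against E10.5 (3) came to 5 with RLE factors, 5 with DESeq2 and 1 in series R10 alone, and to 2 to 4 without 1 library. In microglia at E18.5 against E12.5 (2) they came to 4 with DESeq2 and 1 with the compared groups alone, and to 0 to 3 without 1 library. In BAM at E11.5 against E10.5 (2) they came to 1 to 2 without 1 library. For the contrast of the changes from E12.5 to E18.5 (0) DESeq2 gave 1, the replicate block of adjacent library numbers 1, and leaving out 1 library 0 to 1. The labels give no replicate numbers, and libraries adjacent in number deviated together weakly (19 pairs, median r 0.0736, 6 above 0.1), so the block is not a pairing. Under it the contrast from E10.5 to E18.5 also called Cltc at 0.51, and from E12.5 Ap2a1 at −0.74. Other list genes called over the 6 stages stayed at 58 to 66 higher and 20 to 25 lower. The E18.5 against E10.5 median of all tested genes, 0.29 in each population, was 0 with no filter or within R10. Of 120 group levels, 10 moved by more than 1 SD with TMM scaling. Exon-level reads were not used, so overlapping genes and paralogs were not separated.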

Other observations

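Among the receptors that feed this route, some were higher and others lower with stage. Of 26 cargo receptors, 13 rose and 4 fell in BAM from E10.5 to E18.5, and 11 rose and 5 fell in microglia. Of all tested genes 22.8% rose and 14.8% fell in BAM, and 20.9% and 14.4% in microglia. Among the well-expressed genes 23.4% rose and 33.6% fell in BAM, and 25.3% and 33% in microglia. The transferrin receptor Tfrc, which delivers iron through clathrin coats, fell by 2.61 ± 0.21 in BAM over that window (edgeR adjusted p = 6.75e-12). Between E12.5 and E18.5 Tfrc fell by 2.50 ± 0.22 in BAM (adjusted p = 5.65e-10) and by 1.70 ± 0.22 in microglia (adjusted p = 1.71e-06). The lipoprotein receptor Scarb1 fell by 1.38 ± 0.12 in BAM from E10.5 to E18.5 (adjusted p = 5.98e-11). In microglia the apoptotic cell receptor Mertk rose by 2.18 ± 0.15 (adjusted p = 5.57e-14) and the lipoprotein receptor family member Lrp1 by 1.84 ± 0.15 (adjusted p = 6.71e-12), and the Lrp1 change in BAM minus that in microglia was −1.78 ± 0.21 (adjusted p = 1.63e-07). Lrp1, a known cargo receptor of clathrin coats, thus changed in microglia in the direction opposite to Dab2.

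From E10.5 to E11.5 the scavenger collectin Colec12 rose by 1.80 ± 0.22 in BAM (adjusted p = 1.87e-06) and by 1.83 ± 0.22 in microglia (adjusted p = 4.02e-07). The phosphatidylserine-sensing receptor Axl rose by 2.71 ± 0.37 in microglia (adjusted p = 3.08e-06). Among fission genes Bin1, whose protein bends membranes, rose by 1.72 ± 0.13 in microglia from E10.5 to E18.5 (adjusted p = 1.11e-12), and its change in BAM minus that in microglia was −1.33 ± 0.18 (adjusted p = 2.08e-06). Within-series values of these list genes were not computed, and series and stage cannot be told apart from E10.5 to E18.5 beyond 1 library in each population.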
